A study of Mus musculus with 8 samples.

Results

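The miR-21 target genes examined here are Pdcd4, Reck, Tpm1, Spry1 and Peli1, 5 mouse genes known as targets of the microRNA miR-21 and matched by symbol to the Ensembl identifiers of the expression table. They make up 5 of the 55487 genes in that table. No expression value was used to choose them, although the choice was made with earlier results of these data known. The RNA came from Lewis lung carcinoma (LLC) cells, a mouse lung carcinoma line grown in culture, in 4 wild-type and 4 ΔAgo2 libraries. The sample titles describe the libraries as biological replicates and name no batch, and they were treated here as 1 batch. The ΔAgo2 cells carry a knockout of Argonaute 2 (Ago2) made with a lentiviral CRISPR-Cas9 vector and puromycin selection. The study's methods mention single-cell clones and name 1 clone for engraftment, but do not say whether the sequenced ΔAgo2 cells were 1 clone, so the knockout and the history of a clone cannot be told apart here. No control vector is described for the wild-type cells, the labels list no treatment for either group, and the question was whether the target mRNAs were higher in the knockout.

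MicroRNAs are short RNAs that Argonaute proteins carry to messenger RNAs, usually through pairing of the microRNA seed, its bases 2 to 8, with a complementary site in the 3′ untranslated region (3′ UTR). The bound Argonaute recruits factors that block translation and shorten the life of the mRNA, and loss of this repression, called derepression, raises the mRNA or its protein. miR-21 is abundant in many carcinomas and is widely described as an oncogenic microRNA whose targets restrain growth, invasion or signaling. Ago2 is 1 of 4 mammalian Argonaute paralogs, all of which bind microRNAs.

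The mature microRNAs are shown because their seeds define which sites were searched for. The mouse sequences below are from RefSeq (GRCm38.p6), 5′ to 3′, with the seed in capitals.
miR-21a-5p: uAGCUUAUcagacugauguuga
miR-21c: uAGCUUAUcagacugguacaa
miR-21b: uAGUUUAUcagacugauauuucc
miR-21a-5p lies on the minus strand at chr11:86584120-86584141. Its seed was shared with 1 other entry, miR-21c, among 1738 mature records, whereas miR-21b has a different seed. The hairpin of Mir21a lies at the 3′ end of Vmp1, a gene for an endoplasmic reticulum protein of autophagy, and overlaps an exon of 1 annotated Vmp1 transcript.

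The target site complementary to this seed is ATAAGCTA when it pairs with bases 2 to 8 and is followed by an A (8mer). The weaker forms searched were ATAAGCT (7mer-m8), TAAGCTA (7mer-A1) and TAAGCT (6mer), each contained in the longer ones, on the sense strand of the longest annotated 3′ UTR of each protein-coding gene of GENCODE M21. Of the 5 genes, 4 held an 8mer. These sites are shown with their neighboring bases on the sense strand of GRCm38, with the 8mer in capitals.
Pdcd4: gtgtgggtgttctgATAAGCTActtt
Reck: ttttacagtttgaaATAAGCTAttaa
Spry1: atgtaagtgcttaaATAAGCTAtata
Peli1: tgcattgtaagtttATAAGCTAagtg
All 4 sites are exonic and lie on the plus strand. The Pdcd4 site is at chr19:53929432-53929439, starting at base 289 of a 717-base 3′ UTR, and is present in 2 of its 3 coding transcripts. The Reck site is at chr4:43944407-43944414, at base 1042 of 1441. The Spry1 site is at chr3:37643873-37643880, at base 322 of 1047, and is present in all 3 coding transcripts. The Peli1 site is at chr11:21148555-21148562, at base 32 of 1800, close to the stop codon, and is present in both coding transcripts. Outside the 8mer the letters of the 4 windows differ.

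Tpm1 (chr9:67022590-67049406, minus strand) held none of the 4 site forms in the 3′ UTR of any of its 16 coding transcripts. The 6mer TAAGCT was found upstream of the 3′ UTR in all 16 of them. That no match was found says only that these letters are absent from these annotated 3′ UTRs. For comparison, an 8mer was present in 441 of 20990 searched 3′ UTRs (2.101%), and in 89 of 6618 (1.345%) when the length was held to the 717 to 1899 bases that the 5 genes span.

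The libraries held 39628101 to 68530912 counts. Wild-type replicate 4 stood apart from the other 7: its Spearman correlation with them across genes was 0.826 to 0.886, and its share of mitochondrial counts was 0.540%, with 2.39% to 4.51% in the others. Its deviation from wild-type replicates 1 to 3 rose with the GC content of the transcript (Spearman rho 0.72 across 14226 genes, which are not independent replicates and share the libraries). Results for the 5 target genes are therefore given with and without this library, and other results where stated. Ago2 mRNA did not separate the genotypes, at 303.6 ± 165 CPM (counts scaled to library size; SD, n = 4) in wild-type and 351 ± 55.7 in ΔAgo2 cells, so it does not check the labels, and an edit of this kind need not lower the mRNA. The study examined Ago2 protein in wild-type and ΔAgo2 LLC cells by western blot, which is separate from these libraries. All 4 lung epithelium markers were at 1 count or less in every library and the epithelial genes Epcam and Cdh1 at 9 or less. The summed CPM of 6 mesenchymal markers was 4800 to 8341 in wild-type and 6713 to 7579 in ΔAgo2 libraries. Nearly all of this sum was Vim and Fn1, with wild-type means of 4336 and 2364 CPM. Cdh2 reached at most 26.2 CPM in any library, Pdgfrb 6.86, Col1a1 3.01 and Col1a2 1.12. Epithelial markers, which include Krt8 and Krt18, summed to 114 to 1259 and 313 to 509 CPM. Immune markers summed to 5.88 to 38.8 and 5.43 to 17.2 CPM. Ptprc, Cd3e and Itgam were at 2 counts or less, whereas Cd68 had 241 to 2338 counts, most of the sum, and Lyz2 25 to 163. Endothelial markers summed to 0.0931 to 0.651 and 0.227 to 0.998 CPM. The part of these markers in the results below was not tested.

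None of the 5 target genes passed the test for a difference between wild-type and ΔAgo2 cells. Reck, Spry1 and Tpm1 had estimates above 0 (higher in ΔAgo2) and Pdcd4 and Peli1 below 0, and in each of the 5 the 2 groups overlapped. By edgeR's quasi-likelihood test, adjusted over 14228 genes, 0 of 5 passed an adjusted p of 0.05 in either direction, and at an unadjusted 0.05 the count was also 0. DESeq2 and edgeR without wild-type replicate 4 likewise called 0 of 5. Over all genes tested, 0.295% were called (42 genes) and 0.0773% were called higher in ΔAgo2 cells (11 genes), 7.34% had an unadjusted p under 0.05, and 6.07% had groups that did not overlap. DESeq2 called 2.23% of the genes it tested, and edgeR without wild-type replicate 4 called 0.777%. With so few genes called in all, a count of 0 in 5 is what the background share would also give. Log2 fold changes are given as ΔAgo2 over wild-type throughout, and their median was 0.017 over the 5 targets and -0.11 over every gene tested. Of all genes tested, 41.2% had an estimate above 0. In bulk RNA, fewer cells of a type and less RNA per cell cannot be told apart.

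**Figure D1:**
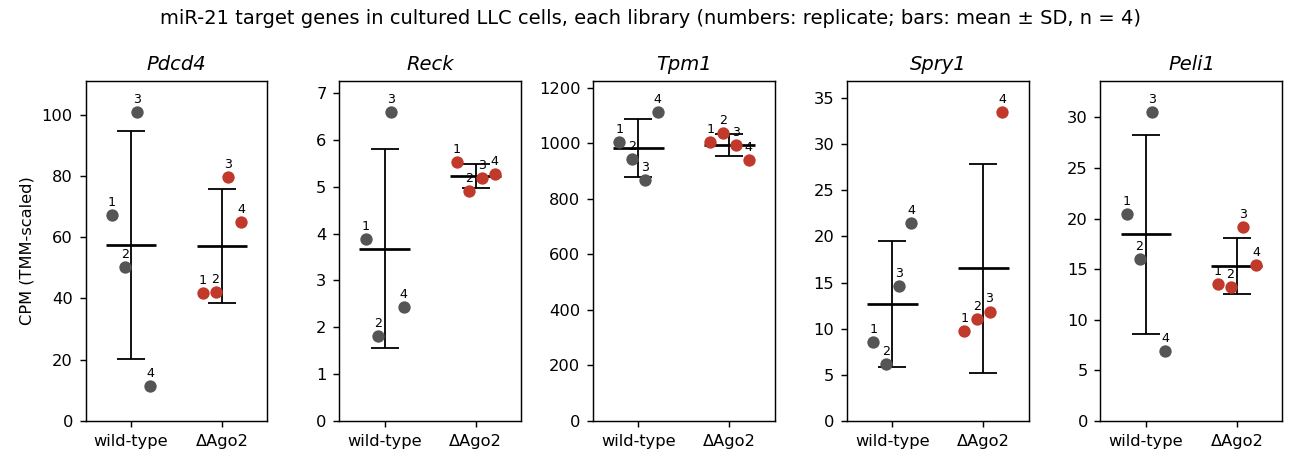
CPM of the 5 target genes (vertical axes, each from 0) in each of 4 wild-type (gray) and 4 ΔAgo2 (red) libraries, numbered by replicate, with horizontal lines for the mean and bars for the SD. The groups overlap for every gene, wild-type replicate 4 is the lowest library for Pdcd4 and Peli1, and ΔAgo2 replicate 4 is the highest for Spry1.

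Pdcd4 (ENSMUSG00000024975.13) encodes a tumor suppressor that binds the RNA helicase eIF4A and restrains cap-dependent translation, and is among the best known miR-21 targets. It was counted at 67.3, 50.4, 101 and 11.3 CPM in wild-type replicates 1 to 4 and at 41.7, 42, 79.7 and 65.1 CPM in ΔAgo2 replicates 1 to 4. The wild-type libraries hold both the highest and the lowest value, and all ΔAgo2 libraries fall between them. The log2 fold change was -0.0097 (SE 0.53, 95% interval -1.19 to 1.17, edgeR adjusted p = 0.998), an interval that spans a ratio of 0.437 to 2.26. Without wild-type replicate 4 the estimate was -0.34 (interval -1.02 to 0.34), and a 2-fold rise lies outside that interval. In wild-type replicate 4, Pdcd4 differed from the mean of the other wild-type libraries by -2.63 log2 units, its transcript has a GC content of 43.1% against a median of 49.6% over tested genes, and the estimate with the GC trend of every library removed (GC correction) was -0.088.

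Peli1 (ENSMUSG00000020134.13) encodes Pellino-1, a ubiquitin ligase of Toll-like and interleukin-1 receptor signaling. Its levels were 20.5, 16.0, 30.5 and 6.86 CPM in wild-type and 13.5, 13.2, 19.1 and 15.4 CPM in ΔAgo2 replicates 1 to 4. Wild-type replicates 1 to 3 all lay above 3 of the 4 ΔAgo2 libraries, and wild-type replicate 4 lay below all of them. The log2 fold change was -0.27 (SE 0.41, interval -1.18 to 0.64, edgeR adjusted p = 0.883). Without wild-type replicate 4 it was -0.54 (interval -1.11 to 0.039, edgeR unadjusted p = 0.0642, adjusted p = 0.430), and after the GC correction it was -0.58 (adjusted p = 0.521), so both estimates lay below 0 without passing the test. Peli1 has the lowest GC content of the 5 transcripts, 39.2%, and differed by -1.64 log2 units from the other wild-type libraries in replicate 4.

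Reck (ENSMUSG00000028476.13) encodes a membrane-anchored inhibitor of matrix metalloproteinases. It was the only gene of the 5 with an estimate above 0 in all 20 alternative settings. Its levels were 3.88, 1.81, 6.60 and 2.42 CPM in wild-type and 5.52, 4.92, 5.20 and 5.28 CPM in ΔAgo2 replicates 1 to 4. All ΔAgo2 libraries lay above 3 wild-type libraries and below wild-type replicate 3. The log2 fold change was 0.50 (SE 0.43, interval -0.45 to 1.46, edgeR adjusted p = 0.784), 0.36 without wild-type replicate 4 and 0.43 after the GC correction, and it ran from 0.26 to 0.95 over the alternatives with no adjusted p below 0.417. Reck was the least abundant of the 5, with 78 to 444 counts per library. The ΔAgo2 libraries were close together (SD of log2 CPM 0.068), while the wild-type libraries spread widely (0.81), also without replicate 4 (0.93).

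Spry1 (ENSMUSG00000037211.12) encodes Sprouty 1, a feedback inhibitor of receptor tyrosine kinase and ERK signaling. Its levels were 8.60, 6.18, 14.6 and 21.5 CPM in wild-type and 9.74, 11.0, 11.9 and 33.5 CPM in ΔAgo2 replicates 1 to 4. Replicate 4 was the highest library of each group, and ΔAgo2 replicate 4 lay far above the other ΔAgo2 libraries. The log2 fold change was 0.38 (SE 0.51, interval -0.75 to 1.51, edgeR adjusted p = 0.859). It was 0.76 without wild-type replicate 4 and -0.22 without ΔAgo2 replicate 4, so its sign rests on a single library. Spry1 has the highest GC content of the 5 transcripts, 56.7%, and lay 1.22 log2 units above the other wild-type libraries in replicate 4. An antisense gene, Gm42922, overlaps its exons, and the strand setting of the counting is not given in the sources used here, so reads of the 2 genes may not have been separated.

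Tpm1 (ENSMUSG00000032366.15) encodes an α-tropomyosin, which coats actin filaments and stabilizes stress fibers. It was by far the most abundant of the 5 and the least variable. Its levels were 1006, 943, 868 and 1113 CPM in wild-type and 1005, 1038, 995 and 939 CPM in ΔAgo2 replicates 1 to 4. All ΔAgo2 libraries lay within the wild-type range. The log2 fold change was 0.017 (SE 0.24, interval -0.51 to 0.54, edgeR adjusted p = 0.990), which allows a ratio of 0.704 to 1.45, and without wild-type replicate 4 it was 0.091 (interval -0.26 to 0.45). The gene without a 3′ UTR site therefore had the narrowest interval, and the 4 genes with an 8mer were spread on both sides of it.

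**Figure D2:**
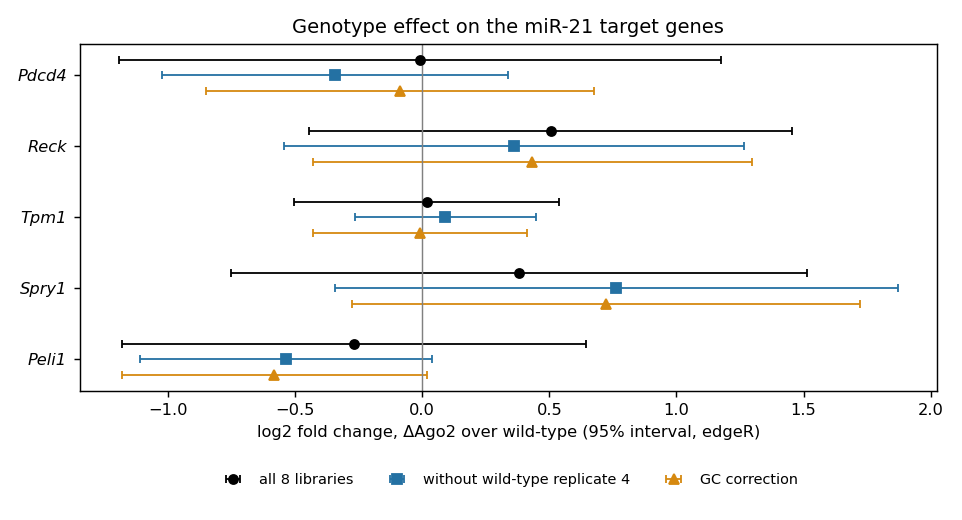
Log2 fold change of ΔAgo2 over wild-type for the 5 target genes (horizontal axis) with 95% intervals from edgeR, for all 8 libraries (circles), without wild-type replicate 4 (squares) and after the GC correction (triangles). Every interval includes 0, and the intervals are narrowest for Tpm1.

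An exact two-sided permutation test on log2 CPM over the 70 splits of 4 against 4, whose smallest possible p is 0.0286, gave p = 0.857 for Pdcd4, 0.171 for Reck, 0.886 for Tpm1, 0.571 for Spry1 and 0.800 for Peli1. Over the 20 alternative settings the estimate was above 0 in 10 for Pdcd4, 20 for Reck, 15 for Tpm1, 19 for Spry1 and 3 for Peli1, and none of these settings gave an adjusted p under 0.05 for any of the 5. The spread was wider in wild-type than in ΔAgo2 libraries for all of the genes except Spry1. The SD of log2 CPM in wild-type libraries was 1.38 for Pdcd4 and 0.91 for Peli1, against 0.47 and 0.24 in ΔAgo2 libraries, and the median over tested genes was 0.78 in wild-type, 0.43 in wild-type without replicate 4 and 0.23 in ΔAgo2 cells.

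**Figure D3:**
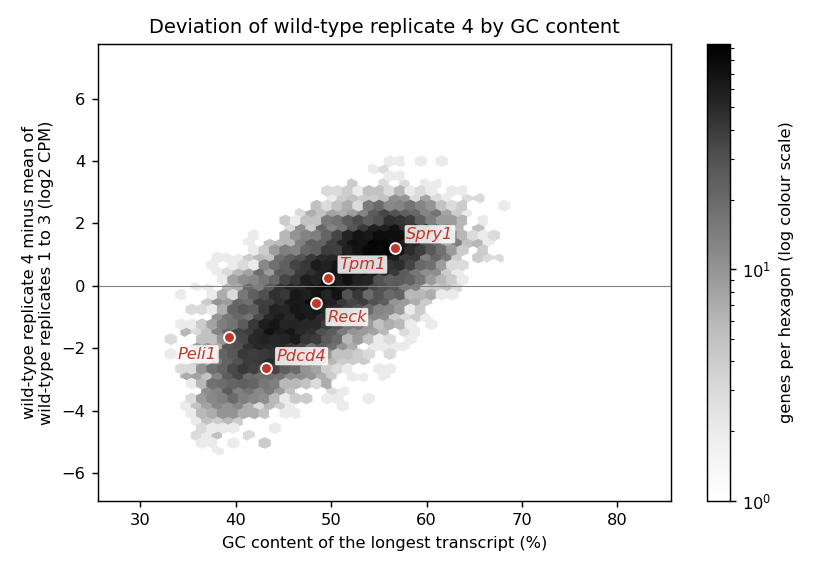
Log2 CPM of wild-type replicate 4 minus the mean of wild-type replicates 1 to 3 (vertical axis) against the GC content of the longest transcript (horizontal axis, percent) for 14226 genes, with darker hexagons holding more genes (log color scale) and the 5 target genes in red. The deviation rises with GC content, from Peli1 and Pdcd4 below 0 to Spry1 above 0.

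Levels of different genes were compared per length, as the TPM values that the authors deposited, which divide counts by gene length and by the library total. Tpm1 stood first at 472 ± 77.4 TPM (SD, n = 4) in wild-type and 549 ± 39.3 in ΔAgo2 cells, followed by Pdcd4 at 61.8 ± 41.9 and 64.5 ± 18.2. Spry1 was at 12.8 ± 4.68 and 20.2 ± 13.7 TPM, Peli1 at 9.36 ± 5.57 and 8.32 ± 1.11, and Reck at 2.46 ± 1.62 and 3.92 ± 0.308. The order of the means was the same in both genotypes. In wild-type cells the neighbors Spry1 and Peli1 overlapped, as did Pdcd4 in its lowest library (7.98 TPM) with Spry1 and Peli1, and Peli1 in its lowest (2.32 TPM) with Reck, both in wild-type replicate 4. In ΔAgo2 cells the ranges of neighbors did not overlap, with Spry1 at 12.6 to 40.7 TPM between Pdcd4, whose lowest library was at 48.6, and Peli1 at 7.33 to 9.88.

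The 5 genes did not vary together. Across the 8 libraries, which share wild-type replicate 4 and its GC-dependent deviation, Pdcd4 and Peli1 followed each other in log2 CPM (Pearson's r 0.954, and 0.915 over the 7 libraries without it), and both ran opposite to Tpm1 (r -0.816 and -0.846, and -0.672 and -0.707 over 7). The other 7 pairs lay between -0.363 and 0.564. By the same measure, the tested genes most like each target were Carnmt1, Rnf138 and Ccdc59 for Pdcd4 (r 0.994 to 0.995), Myom1, Rexo5 and Rnf19a for Peli1 (0.988 to 0.993), Capg, Shroom1 and Dnajb5 for Tpm1 (0.975 to 0.987), Col4a5, Plcl2 and Pex11a for Reck (0.974 to 0.980) and Cmbl, Tmem120b and Ociad1 for Spry1 (0.910 to 0.932). These are descriptions of 8 libraries, chosen as the highest of all tested genes.

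The microRNA itself was not measured by this assay. Mir21a was at 0 counts in all 8 libraries, and a count on the mRNA of its hairpin gene says nothing about the mature form. The host transcript Vmp1 was at 373, 126, 228 and 71.9 CPM in wild-type and 175, 175, 248 and 170 CPM in ΔAgo2 replicates 1 to 4. The ΔAgo2 values lie within the wild-type range (log2 fold change -0.056, SE 0.45, edgeR adjusted p = 0.983). Of the 6 tested genes of the locus and its known transcriptional inducers, 4 had estimates above 0 and 0 were called. Among them Fos, a subunit of the transcription factor AP-1, had a log2 fold change of 0.88 (SE 0.52, adjusted p = 0.739), its family member Fosl1 0.51 (SE 0.39), and Stat3, a cytokine-activated transcription factor, -0.34 (SE 0.30). Without wild-type replicate 4 the 3 estimates were 0.54, 0.82 and -0.26.

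The genes that act with the targets were examined in the same fit, in which 41.2% of all genes tested had an estimate above 0. The partners of Pdcd4 in translation initiation gave 2 of 4 estimates above 0 and 0 called: the helicase genes Eif4a1 and Eif4a2 had log2 fold changes of 0.17 (SE 0.24) and -0.49 (SE 0.64), and the scaffold gene Eif4g1 -0.22 (SE 0.29). Of the proteases and partners of Reck, 4 of 5 were tested, since Mmp2 had at most 14 counts, 3 lay above 0 and 0 were called. The gelatinase gene Mmp9 was at 0.102, 0.198, 0.267 and 1.09 CPM in wild-type and 0.749, 0.903, 0.809 and 2.12 CPM in ΔAgo2 replicates 1 to 4. Its ΔAgo2 values lay above wild-type replicates 1 to 3 but wild-type replicate 4 overlapped them (log2 fold change 1.52, SE 0.72, adjusted p = 0.700, and 2.57 with adjusted p = 0.0962 without that library). The sheddase gene Adam10 had a log2 fold change of 0.79 (SE 0.49), and Adgra2, which encodes the co-receptor of Reck in Wnt7 signaling, -0.34 (SE 0.44). Without wild-type replicate 4 they were at 0.46 and 0.042.

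Among the paralogs of Tpm1, 2 of 3 lay above 0 and 0 were called. Tpm2 was at 81.5, 87.5, 94.5 and 195 CPM in wild-type and 72.6, 81.6, 64.1 and 57.8 CPM in ΔAgo2 cells. The groups barely overlapped and wild-type replicate 4 was far above the rest (log2 fold change -0.73, SE 0.33, edgeR unadjusted p = 0.0489, adjusted p = 0.677, and -0.34 without that library). Tpm3 and Tpm4 had log2 fold changes of 0.10 (SE 0.28) and 0.24 (SE 0.38). In the Sprouty and ERK feedback list, 8 of 9 genes were tested, 7 lay above 0 and 0 were called. Spry4, another Sprouty inhibitor, was at 103, 117, 67.0 and 174 CPM in wild-type and 230, 233, 156 and 223 CPM in ΔAgo2 replicates 1 to 4. Only ΔAgo2 replicate 3 fell within the wild-type range (log2 fold change 0.87, SE 0.32, edgeR unadjusted p = 0.0214, adjusted p = 0.552, and 1.15 with adjusted p = 0.0742 without wild-type replicate 4). Dusp6, an ERK phosphatase, and Spred1, a Sprouty-related inhibitor, had log2 fold changes of 0.45 (SE 0.29) and 0.50 (SE 0.38), and of 0.33 and 0.22 without that library. In the Pellino list, 4 of 6 lay above 0 and 0 were called, with Traf3, an adaptor that Pellino-1 regulates, at 0.43 (SE 0.25), the kinase gene Irak4 at 0.37 (SE 0.35) and the paralog Peli3 at -0.55 (SE 0.40).

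To set the 5 genes beside a wider group, 27 other genes reported elsewhere as miR-21 targets were followed. Of these 19 were tested, and the other 8 had at most 28 counts in any library. Estimates were above 0 for 9 and below 0 for 10, with a median log2 fold change of -0.11 (-0.029 without wild-type replicate 4). Among these 19, 0 were called higher in ΔAgo2 cells and 1, Marcks, was called lower, where 0.218% of all genes tested were called lower. At an unadjusted p of 0.05, 0 were higher and 3 were lower, namely Marcks, Timp3 and Jag1, where 2.72% of all genes were higher and 4.62% lower.

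Of the 8 genes left out for low counts, 1 was called in the 2 fits that keep such genes, and it was higher in ΔAgo2 cells. Not all 8 could be called. Those with 0 counts in every library had no adjusted p in either fit, and DESeq2 gave none to most of the 8. The called gene was Tiam1, a Rac exchange factor gene with a 7mer-m8, named here after its values were seen. It had 0 counts in all 4 wild-type libraries and 28, 13, 3 and 5 counts in ΔAgo2 replicates 1 to 4. It entered these fits only through its counts in ΔAgo2 libraries, so its adjusted p-values are a description and not a test of derepression. The groups did not overlap, although ΔAgo2 replicate 3 was at the floor of 3 counts. Of the filtered genes, 3.09% were separated in this direction, a share that leaves Tiam1 out. The adjusted p was 0.00117 by DESeq2, which called 2.23% of the genes it tested. It was 0.0199 by edgeR without the count filter, which called 143 of 27776 genes. Both of these background figures count calls in either direction. Among protein-coding genes with an annotated 3′ UTR, DESeq2 called 112 of 16144 higher in ΔAgo2 cells. For edgeR without the count filter this was 34 of 16271.

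Marcks, which encodes an actin-binding substrate of protein kinase C, was at 6.69, 3.07, 16.6 and 5.12 CPM in wild-type and 0.391, 0.380, 0.368 and 0.719 CPM in ΔAgo2 replicates 1 to 4. The groups did not overlap (log2 fold change -4.07, SE 0.60, edgeR adjusted p = 0.0247, and -4.22 with adjusted p = 0.0210 without wild-type replicate 4). The call was lost when wild-type replicate 1 (adjusted p = 0.0670) or any single ΔAgo2 library (0.0773 to 0.147) was left out, while the log2 fold change stayed at -4.14 and at -3.99 to -4.36. Its longest 3′ UTR held none of the 4 site forms. Timp3, which encodes an inhibitor of matrix metalloproteinases and holds an 8mer, was at 7.22, 0.793, 10.5 and 3.85 CPM in wild-type and 0.847, 1.12, 0.417 and 1.12 CPM in ΔAgo2 cells. Wild-type replicate 2 lay within the ΔAgo2 range (log2 fold change -2.67, SE 0.70, edgeR adjusted p = 0.277, 0.0445 without wild-type replicate 2, and 0.00388 by DESeq2). Jag1, a Notch ligand gene with an 8mer, was at 6.32, 6.25, 14.4 and 0.807 CPM in wild-type and 1.73, 1.38, 2.57 and 1.53 CPM in ΔAgo2 cells. Here wild-type replicate 4 was the lowest library of all (log2 fold change -1.95, SE 0.68, edgeR adjusted p = 0.507, and -2.31 with adjusted p = 0.0388 without it).

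Several reported targets had estimates above 0 that did not pass the test. Cdc25a, a cell cycle phosphatase gene with an 8mer, was at 32.5, 45.6, 37.9 and 41.4 CPM in wild-type and 49.9, 51.0, 49.8 and 52.7 CPM in ΔAgo2 replicates 1 to 4. It was the only one of the 19 whose ΔAgo2 libraries all lay above the wild-type libraries (log2 fold change 0.37, SE 0.23, edgeR adjusted p = 0.740), where 3.09% of all genes were separated in this direction and 6.07% in either. The log2 fold change of Cdc25a was 0.11 after the GC correction (edgeR adjusted p = 0.918). Without wild-type replicate 4 it was 0.40 (edgeR adjusted p = 0.357). Rasa1, a Ras GTPase activating gene, had a log2 fold change of 1.04 (SE 0.59, adjusted p = 0.732, and 0.68 without wild-type replicate 4). Tgfbr2, a TGF-β receptor gene, was at 0.55 (SE 0.31, adjusted p = 0.731), and at 0.80 with adjusted p = 0.189 without that library. Spry2, Nfib and Kbtbd7, each with an 8mer, were at 0.26 (SE 0.26), 0.27 (SE 0.43) and 0.35 (SE 0.42). The mismatch repair gene Msh6, which had no site, was at 0.29 (SE 0.30), and the antiproliferative gene Btg2, with a 7mer-A1, at -0.37 (SE 0.29). Sorted by site, the 11 tested genes with an 8mer had a median of -0.22 with 5 above 0, and the 3 tested genes with no match a median of 0.10 with 2 above 0.

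**Figure D4:**
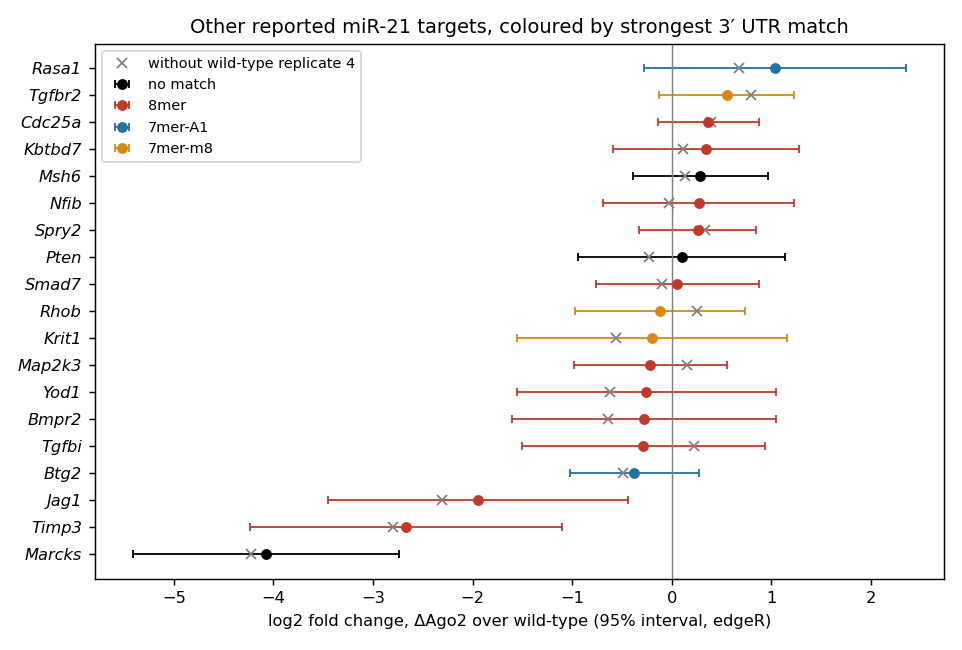
Log2 fold change of ΔAgo2 over wild-type (horizontal axis) for the 19 tested genes reported elsewhere as miR-21 targets, with 95% intervals from edgeR, colored by the strongest miR-21 seed match in the longest 3′ UTR. Crosses give the estimate without wild-type replicate 4. Marcks, Timp3 and Jag1 lie below 0 and the other 16 intervals include 0.

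All tested genes with an annotated 3′ UTR were then sorted by their strongest miR-21 seed match, which uses no reported target. With all 8 libraries, the median log2 fold change was 0.091 for 278 genes with an 8mer and 0.083 for 667 with a 7mer-m8, against -0.15 for 8848 with no match and -0.097 for all 12051. Of the genes with an 8mer, 61.5% were above 0, and of those with no match 37.7%. Of the genes with an 8mer 1 of 278 was called (0.360%), and of those with no match 30 of 8848 (0.339%). The 2 shares moved apart in some other settings and not in others. They were 1.773% and 0.806% without wild-type replicate 4, 3.438% and 2.183% by DESeq2 (349 and 12139 genes), and 4.317% and 1.854% by limma-voom with sample weights. The DESeq2 shares are over genes with a p-value, and a gene without an adjusted p counts as not called. How far this moves the 2 shares was not tested. Of the 8mer genes called in these 3 settings, 2 of 5, 5 of 12 and 4 of 12 were higher in ΔAgo2 cells. Genes with a 7mer-m8 were called at 0.445%, 2.169% and 1.649% in the same 3 settings, each below the share with no match. The 8mer and no-match shares were 0.855% and 0.825% without the count filter and 0.712% and 0.672% without wild-type replicate 2. Without wild-type replicate 1 they were 0% and 0.090%. The 1 gene called with an 8mer by edgeR with all libraries was Tmtc1, named here after its value was seen. It had 14 to 170 counts in wild-type and 0 or 1 in ΔAgo2 libraries, lower in the knockout. Tmtc1 passed the count filter only through its wild-type libraries, and the 8mer share of 0.360% rests on it alone. With at least 1 CPM in 4 libraries the 8mer and no-match shares were 0% and 0.025%.

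The classes also differed in composition. The median 3′ UTR length was 3021.5 bases with an 8mer and 875 without a match, the median transcript GC content 44.9% and 51.0%, and the median deviation of wild-type replicate 4 from the other wild-type libraries -1.14 and 0.28 log2 units. Without wild-type replicate 4 the median was -0.031 for 282 genes with an 8mer, -0.038 for 674 with a 7mer-m8, -0.021 for 8931 with no match and -0.027 for all. After the GC correction with all 8 libraries it was -0.0094, -0.011, -0.091 and -0.076, in the same order. The 8mer class thus had a higher median than genes with no match with all libraries and after the GC correction, and a slightly lower one without wild-type replicate 4. With all libraries and limma-voom with sample weights, the medians were 0.018 and 0.0012. Limma-voom without weights gave 0.29 and -0.027, and limma on log2(TPM + 1) 0.38 and 0.13. In 4 bins of GC content with equal numbers of genes, a division chosen after the values were seen, the lowest bin, which holds 140 of the 278, had medians of 0.11 for the 8mer class and 0.14 for genes with no match, and -0.12 and -0.093 without wild-type replicate 4. In the other 3 bins, with 78, 40 and 20 genes with an 8mer, the 8mer class had the higher median, with and without that library. From lower to higher GC content its medians were 0.12, 0.018 and -0.28, against 0.031, -0.23 and -0.48 with no match. Without wild-type replicate 4 they were -0.0075, 0.16 and 0.034, against -0.013, -0.0050 and 0.014. These medians are over genes of the same 8 libraries and carry no test.

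**Figure D5:**
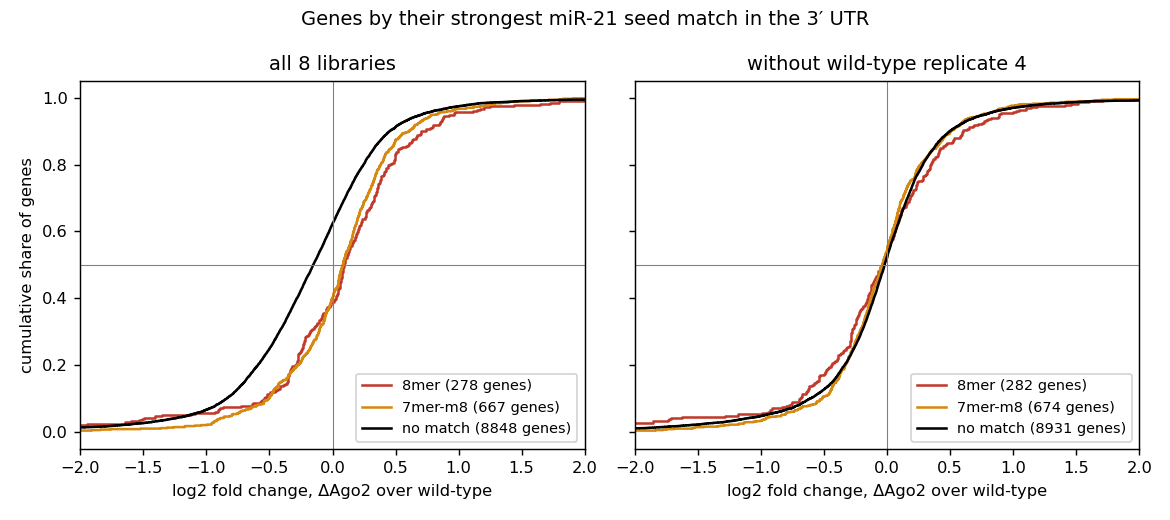
Cumulative share of genes (vertical axis) by log2 fold change of ΔAgo2 over wild-type (horizontal axis) for genes with an 8mer, a 7mer-m8 or no miR-21 seed match in the longest 3′ UTR, with all 8 libraries (left) and without wild-type replicate 4 (right). The curves of the 8mer and 7mer-m8 classes lie to the right of the no-match curve with all libraries, and the medians of the 3 classes lie between -0.038 and -0.021 without that library.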

How the data were processed

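RNA-seq of 4 wild-type and 4 ΔAgo2 libraries, grouped by their labels, was analysed. Per the labels and the study's methods, the authors prepared the libraries with a stranded mRNA kit, sequenced them in paired-end mode, aligned the reads to ribosomal RNA and then to mm10 (STAR, in the submitters' processing notes) and counted them with featureCounts. The annotation release and the strand setting of the counting are not given in the sources used here. The authors deposited whole-number read counts per gene, not normalized, and TPM values of the same libraries.

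Counts were filtered with filterByExpr (14228 of 55487 genes kept), scaled with TMM and tested with edgeR 4.0.16 (R 4.3.3), quasi-likelihood, two-sided, Benjamini-Hochberg adjustment, with genotype as the only factor. CPM are counts over TMM-scaled library sizes. Genes were matched to GENCODE M21 without the identifier version (93 unmatched), and seed matches were read from its 3′ UTRs. Correlations used log2 CPM with a prior count of 2. TPM were tested with limma 3.58.1 on log2(TPM + 1) and log2(TPM + 0.1), which understates changes of low genes. Alternatives were DESeq2 1.42.0, limma-voom (with or without weights per library), RLE or no scaling factors, looser and stricter filters, each library left out, the replicate number as a block, and a per-library lowess correction for GC content. The pipeline was tested on simulated counts.

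The members, lists and tests were chosen with earlier results of these data known. The genes named are the 5 members, Mir21a and Vmp1, 11 other reported targets with the smallest p, up to 3 genes with the smallest p per partner list, marker genes, and the 3 genes most like each member. The result for 1 other gene of the reported target list is not reported here. Tmtc1 and Tiam1 were added after their values were seen. Library totals ran from 39628101 to 68530912 counts, and p-values measure the spread between these libraries.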

Additional observations from a re-analysis of the deposited data

Results flagged for a closer look

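In 72 groups of 4 libraries, 7 had a library far from the other 3. For independent, normally distributed values about 1 group in 20 would. These groups share the 8 libraries and include genes chosen by p-value or after their values were seen, so that rate is no reference for them. The measure is the gap of the highest or lowest library to its neighbor as a share of the group's range, called by the critical value of Dixon's test. Among the 5 target genes this held for Spry1 alone, with ΔAgo2 replicate 4 at 33.5 CPM and the other ΔAgo2 libraries at 9.74 to 11.9 (0.840). ΔAgo2 replicate 4 was also the high library for Marcks (0.719 CPM against 0.368 to 0.391, ratio 0.911) and for Tmtc1, where it held the only count of the group (ratio 1.0). A group with a single count in 1 library and none in the others always has that ratio. ΔAgo2 replicate 3 was high for Vmp1 (248 against 170 to 175, ratio 0.913) and low for Spry4 (156 against 223 to 233, ratio 0.883). Wild-type replicate 4, the library that stood apart, was high for Tpm2 (195 against 81.5 to 94.5, ratio 0.831) and low for Spred1 (55.0 against 174 to 218, ratio 0.837). The causes were not tested.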

How the results depend on the processing

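No alternative gave a call for any of the 5 target genes, and depth was not varied. Each of the 5 had at least 78 counts in every library. Pdcd4 turned above 0 with limma-voom (0.26), library size alone (0.029), no filter beyond 1 count (0.0027), log2(TPM + 1) (0.48), log2(TPM + 0.1) (0.51) and the replicate block (0.22), and ran from -0.34 to 0.41 when 1 library was left out, the extremes being wild-type replicates 4 and 3. Tpm1 turned below 0 after the GC correction (-0.0087), also with the block (-0.0023), and ran from -0.036 to 0.091 with 1 library left out. Peli1 turned above 0 with log2(TPM + 1) (0.057) and log2(TPM + 0.1) (0.11), and ran from -0.54 to 0.086. Spry1 ran from -0.22 to 0.76. These scalings also move the median of all genes, from -0.11 to 0.033 with limma-voom, -0.0077 with library size alone, and 0.15 and 0.22 with the TPM pseudocounts of 1 and 0.1. The cause of these sign changes was not tested.

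The number of genes called, 42, was 399 with DESeq2, 257 with sample weights, 143 without the filter, 6 with at least 1 CPM in 4 libraries, 15 with log2(TPM + 1), 18 with the replicate block, 71 with the GC correction and 65 with both, and 1 (without ΔAgo2 replicate 1) to 113 (without wild-type replicate 4) with 1 library left out. The median of the other reported targets was 0.44 with log2(TPM + 0.1). With the replicate block, genes with an 8mer had a median of 0.28 and those with no match -0.036.

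Of the other named genes, Vmp1 turned above 0 with limma-voom (0.18), library size alone (0.0080), log2(TPM + 1) and log2(TPM + 0.1) (both 0.39) and the block (0.19), and ran from -0.32 to 0.44 with 1 library left out. Eif4g1 was 0.22 with sample weights and 0.026 with both TPM settings. Eif4a2 was 0.077 with limma-voom, 0.28 and 0.29 with the TPM pseudocounts of 1 and 0.1 and 0.0077 with the block, and ran from -0.84 to 0.057. The GC correction gave -0.0068 for Spry2, -0.051 (-0.013 with the block) for Eif4a1 and 0.066 for Adgra2. With 1 library left out, Nfib ran from -0.029 to 0.57, Adgra2 from -0.63 to 0.042, Tpm4 from -0.0060 to 0.55 and Tpm3 from -0.015 to 0.26.

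The call for Marcks was also lost with at least 1 CPM in 4 libraries (log2 fold change -4.08, adjusted p = 0.0576), log2(TPM + 1) (-2.12, 0.0922) and the replicate block (-3.83, 0.0525), and Jag1 and Spry4 passed with sample weights (0.0106 and 0.0191).

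The replicate numbers do not pair the libraries: same-numbered deviations correlated at -0.14, -0.049, 0.38 and 0.028, and 1 of 8 libraries correlated best with its own number.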
